A study of Mus musculus with 12 samples.

Results

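The transcripts described here are those of the IL-1 family cytokines and receptors, 8 genes picked by symbol (Il1a, Il1b, Il1rn, Il18, Il18bp, Il1r1, Il1r2 and Il1rap) of the 23997 genes listed for each library. All 8 symbols were found in each of the 12 libraries, and 6 of them passed the filter used for testing, which was 1 FPKM or more in at least 3 libraries. The libraries came from bone marrow-derived macrophages (BMDMs) of C57BL/6 male mice aged 8-10 weeks, grown with recombinant human M-CSF, which is a growth factor for macrophages. The 4 groups were untreated WT, untreated Pim1-/-, WT given LPS (100 ng/ml, 4 h) and Pim1-/- given the same LPS, with 3 libraries in each. LPS is a cell wall component of Gram-negative bacteria that activates TLR4, and Pim1 is a serine/threonine kinase. The Pim1-/- mice carried a CRISPR-Cas9 deletion of exons I–V in every cell, so these exons were also missing while the macrophages grew. The labels number the libraries of a group as replicates without stating if each was a mouse or a culture of its own, so each p value measures only the spread between these libraries.

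IL-1α and IL-1β, encoded by Il1a and Il1b, are proinflammatory cytokines that bind the receptor IL-1R1, which then recruits the accessory chain IL-1RAP and signals through MyD88. The family is held in check at several levels, because the receptor antagonist IL-1Ra (Il1rn) occupies IL-1R1 without signaling, the decoy receptor IL-1R2 captures IL-1 without signaling, and IL-18 binding protein (Il18bp) neutralizes IL-18. Macrophages are a main source of IL-1β and IL-18, both of which are made as precursors that caspase-1 cleaves in inflammasomes before release.

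The upstream windows of the 2 IL-1 agonists and of the antagonist are printed here because these 3 genes had the largest responses to LPS of the family and Il1rn was the member called between genotypes after LPS. The sequences are those of RefSeq on GRCm38.p6, the 250 bases before the start, read 5′ to 3′ on the strand of the gene, with letters found by a search in capitals. In Il1a (chr2:129309973-129310222, minus strand) the capitals mark TATAAA, which begins 32 bases before the start, and TGACTCA, the AP-1 letters, which begins 12 bases before it.
Il1a: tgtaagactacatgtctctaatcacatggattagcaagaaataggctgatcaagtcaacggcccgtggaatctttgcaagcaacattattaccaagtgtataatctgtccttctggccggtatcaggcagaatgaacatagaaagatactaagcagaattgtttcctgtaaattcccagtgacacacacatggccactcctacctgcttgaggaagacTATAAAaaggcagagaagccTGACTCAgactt
In Il1b (chr2:129371140-129371389, minus strand) the capitals mark TATAAA, 31 bases before the start.
Il1b: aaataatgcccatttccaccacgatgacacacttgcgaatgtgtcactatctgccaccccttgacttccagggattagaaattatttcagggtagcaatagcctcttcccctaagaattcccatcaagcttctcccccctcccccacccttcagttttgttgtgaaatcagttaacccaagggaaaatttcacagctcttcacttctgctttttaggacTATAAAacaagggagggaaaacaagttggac
In the first of the 3 RefSeq starts of Il1rn (chr2:24336610-24336859, plus strand) the capitals mark TGAGTCA, the AP-1 letters read on the other strand, 141 bases before the start.
Il1rn: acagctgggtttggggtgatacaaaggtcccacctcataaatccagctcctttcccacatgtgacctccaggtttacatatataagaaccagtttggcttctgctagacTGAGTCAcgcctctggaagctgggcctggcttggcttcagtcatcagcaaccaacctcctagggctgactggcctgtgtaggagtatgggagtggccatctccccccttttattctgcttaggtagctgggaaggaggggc
Across the 11 windows of the 8 genes, searched on both strands, the AP-1 letters were in 2, TATAAA in 3, the GAS letters TTCNNNGAA in 1 (Il1r2), the NF-κB consensus in 1 (a second start of Il1r1) and the ISRE core of interferon-responsive genes (GAAA, any 2 bases, GAAA) in 0. The shares of all 32851 RefSeq windows of that length that hold them were 4.46% for the AP-1 letters, 12.4% for TATAAA, 7.02% for TTCNNNGAA, 7.25% for the NF-κB consensus and 2.98% for the ISRE core. None of the searched letters overlapped another in the windows of these genes. For Il1rn, the windows of the starts further downstream, which are not printed, held none of the searched letters. A match describes the letters and not a binding site, and the deposited values do not separate the starts of Il1rn. Which of its starts was used after LPS was not tested.

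Levels are in FPKM, fragments scaled to transcript length and to the library, so they can be compared between genes. The deposited columns carry no unit, and the reading as FPKM rests on the use of Cuffdiff by the authors and on the values. Summed FPKM was 452511 to 489710 in the untreated libraries and 713307 to 849323 after LPS, and Pearson's r across genes between replicates was 0.998 to 0.999. Pim1 itself was 25.0, 21.5 and 22.3 FPKM in untreated WT libraries and 8.70, 8.00 and 9.51 FPKM in untreated Pim1-/- libraries. After LPS it was 665, 630.2 and 641 FPKM in WT and 216, 205 and 236 FPKM in Pim1-/- libraries, so every Pim1-/- library was below every WT library, although the values cover the whole gene and not the deleted exons alone. Reads assigned to Pim1 thus remained in Pim1-/- libraries, and their mean FPKM rose 25.1-fold with LPS, against 28.1-fold in WT. All 10 macrophage markers on the list were present in each group, with a summed level of 28076 to 30124 FPKM in untreated WT, 14539 to 15434 in untreated Pim1-/-, 31617 to 32085 in LPS-treated WT and 16307 to 18149 in LPS-treated Pim1-/- libraries. Most of each sum was Lyz2, with means of 26302, 13297, 26785 and 13680 FPKM in the same order, so the sums do not describe the other markers. Of 56 measured markers of other cell types, 44 had a mean under 1 FPKM in all groups and 4 reached 10 FPKM in any group, which were Clec10a, Hdc, Lck and Pf4. Of these 4, 3 were called between genotypes, as limma called Clec10a lower in Pim1-/- cells at rest (-3.22) and after LPS (-2.85), Pf4 higher at rest (1.23) and Lck lower after LPS (-1.19, all log2 fold changes), and their part in the results on the family was not tested.

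The resting and induced levels of the family spanned a wide range. In untreated WT BMDMs, Il18 had the highest mean level of the 8 genes, followed by Il18bp, Il1rn, Il1rap, Il1b, Il1a, Il1r2 and Il1r1, and of these neighbours only Il1r2 and Il1r1 overlapped in their ranges over libraries. In untreated Pim1-/- cells the order was Il18, Il1rn, Il1rap, Il18bp, Il1r2, Il1b, Il1a and Il1r1, where Il1rn overlapped with Il1rap and Il1b with Il1a. After LPS the order in WT cells became Il1b, Il1a, Il1rn, Il18, Il18bp, Il1rap, Il1r2 and Il1r1, where only Il1a and Il1rn overlapped. LPS-treated Pim1-/- cells had the same order of means without any overlap of neighbours, because Il1rn lay well below Il1a there.

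**Figure D1:**
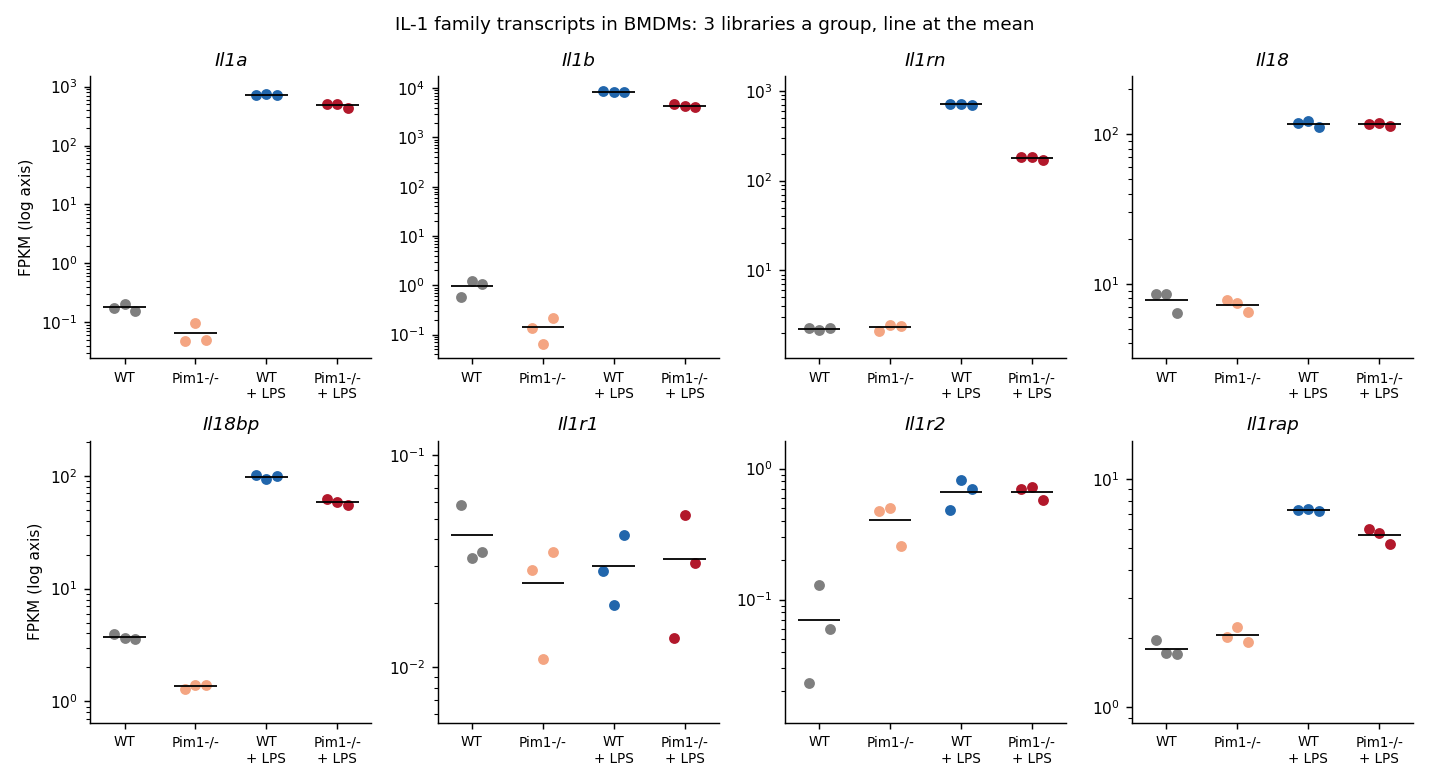
Levels of the 8 transcripts in FPKM on log axes that differ between panels, in 3 libraries per group (points) with the group mean (line), for untreated and LPS-treated WT and Pim1-/- BMDMs. After LPS the Il1rn points of Pim1-/- cells (171 to 185 FPKM) sit far below those of WT cells (695 to 721 FPKM), while the Il18 points of both genotypes share a range.

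Il1a encodes IL-1α, an agonist that is active also as its precursor. In untreated cells Il1a was 0.178, 0.209 and 0.153 FPKM in the WT libraries and 0.0489, 0.0980 and 0.0510 FPKM in the Pim1-/- libraries. The 2 genotypes did not overlap, but the values were low and corresponded to about 12, 15 and 12 fragments in WT and 4, 7 and 4 fragments in Pim1-/- libraries, estimated from the length of its only annotated transcript. In the treated cells Il1a was 710.4, 742 and 715 FPKM in WT and 508, 497 and 433 FPKM in Pim1-/- libraries. Every treated Pim1-/- library lay below every treated WT library, and the mean of the Pim1-/- libraries was 66.3% of the WT mean.

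Il1b, which encodes IL-1β, was 0.584, 1.20 and 1.08 FPKM in untreated WT libraries and 0.134, 0.0659 and 0.220 FPKM in untreated Pim1-/- libraries. The Pim1-/- values were all below the WT values, at 14.6% of the WT mean, and the fragments behind them were about 25, 56 and 55 in WT against 7, 3 and 11 in Pim1-/- libraries on the length of transcript Il1b-201. With LPS, Il1b reached 8636, 8540 and 8370 FPKM in WT libraries and 4781, 4379 and 4147 FPKM in Pim1-/- libraries. It was then 9th among all genes in each WT library and 16th to 18th in the Pim1-/- libraries, and took 0.999% to 1.02% of the summed FPKM in WT against 0.581% to 0.643% in Pim1-/- libraries. The treated groups did not overlap, with the Pim1-/- mean at 52.1% of the WT mean.

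Il1rn, the receptor antagonist, was the member whose genotypes overlapped at rest and stood furthest apart after LPS. It was 2.27, 2.15 and 2.28 FPKM in untreated WT and 2.10, 2.48 and 2.43 FPKM in untreated Pim1-/- libraries, and the ranges overlapped. After LPS it was 721, 713 and 695 FPKM in WT and 185, 183 and 171 FPKM in Pim1-/- libraries. The treated Pim1-/- mean was 25.3% of the WT mean, and the spread within a group was small, with an SD of 13.3 FPKM in WT and 7.40 FPKM in Pim1-/- libraries (n = 3 each).

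Il18, which encodes the proinflammatory cytokine IL-18, was 8.58, 8.58 and 6.33 FPKM in untreated WT and 7.84, 7.42 and 6.46 FPKM in untreated Pim1-/- libraries. It reached 119, 122 and 112 FPKM in LPS-treated WT and 118, 118 and 114 FPKM in LPS-treated Pim1-/- libraries. The genotypes overlapped in both conditions. Il18bp, which encodes the secreted inhibitor of IL-18, was 3.96, 3.61 and 3.57 FPKM in untreated WT and 1.30, 1.40 and 1.39 FPKM in untreated Pim1-/- libraries. With LPS it was 102, 93.0 and 98.6 FPKM in WT and 61.7, 58.4 and 54.6 FPKM in Pim1-/- libraries. In both conditions every Pim1-/- library was below every WT library, and the Pim1-/- mean was 36.6% of that of WT at rest and 59.5% after LPS.

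Il1rap, the accessory chain shared by receptors of the family, was 1.96, 1.72 and 1.71 FPKM in untreated WT and 2.04, 2.24 and 1.93 FPKM in untreated Pim1-/- libraries, which overlapped. After LPS it was 7.32, 7.34 and 7.27 FPKM in WT and 6.04, 5.78 and 5.17 FPKM in Pim1-/- libraries, which did not.

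The signaling receptor Il1r1 was close to absent in these cells. It was 0.0582, 0.0326 and 0.0350 FPKM in untreated WT, 0.0287, 0.0110 and 0.0350 FPKM in untreated Pim1-/-, 0.0283, 0.0197 and 0.0420 FPKM in LPS-treated WT and 0.0137, 0.0522 and 0.0309 FPKM in LPS-treated Pim1-/- libraries. These values correspond to 2 to 10 fragments per library on the length of transcript Il1r1-202, and the 4 groups overlapped, so no difference was detectable at this depth.

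The decoy receptor Il1r2 was also low, but was not at the same level in all groups. In untreated WT libraries it was 0.0230, 0.129 and 0.0592 FPKM, or about 1, 6 and 3 fragments on the length of transcript Il1r2-201, and in untreated Pim1-/- libraries it was 0.473, 0.498 and 0.256 FPKM, or about 27, 24 and 14 fragments. The untreated genotypes did not overlap, and the Pim1-/- mean was 579.7% of the WT mean. In treated cells Il1r2 was 0.483, 0.815 and 0.702 FPKM in WT and 0.699, 0.721 and 0.580 FPKM in Pim1-/- libraries, which overlapped. Since no value reached 1 FPKM, Il1r2 was not part of the main test. With no filter, its untreated difference on the log2(FPKM + 1) scale was 0.39 (Pim1-/- minus WT) with an adjusted p of 0.00211 in limma. Il1r2 is abundant in neutrophils, and the summed level of the 11 measured neutrophil markers was 3.17 to 3.69 FPKM in untreated WT, 6.20 to 7.15 in untreated Pim1-/-, 7.26 to 9.91 in LPS-treated WT and 5.93 to 8.75 in LPS-treated Pim1-/- libraries, with 9 of the 11 under 1 FPKM in both untreated groups, where 3 in WT and 2 in Pim1-/- cells were at 0 in all libraries. Most of each untreated sum was S100a8 (means of 1.29 FPKM in WT and 3.41 in Pim1-/- cells) and Mmp8 (1.43 and 2.78). S100a9 was at 0.345 and 0.347 FPKM, and Prtn3, Cxcr2, Elane, Ngp and Ltf had lower means in untreated Pim1-/- than WT cells. The sums thus do not describe the other markers, and these genes were named after their values were seen. The part of the neutrophil markers in the Il1r2 difference was not tested.

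To ask how the family responded to LPS in each genotype, log2(FPKM + 1) was fitted with limma over all 4 groups. A gene was called when its change exceeded 2-fold at p under 0.05 and at an adjusted p (Benjamini-Hochberg) under 0.1. The scale understates a change at low levels. All 6 tested members rose in WT cells, where 34.8% of the 10581 genes tested were called in either direction and 20.1% were called higher. All 6 also rose in Pim1-/- cells, where 25% of genes were called and 14.6% were called higher. Il1a was under 1 FPKM in every untreated library, and Il1b in all except WT replicates 2 and 3. Both passed the filter through treated libraries, so their rise, and the median of the 6 below, are not independent of the filter. No tested member overlapped between untreated and treated libraries, as was the case for 90.4% of genes tested in WT and 83.8% in Pim1-/- cells. The exception by scaling was Il1rap, which was no longer called when the values of each library were scaled to equal sums, and whose change turned negative in both genotypes when scaled to Actb, a gene that itself rose by 2.61 in WT and 1.52 in Pim1-/- cells on the log2 scale. The median log2 fold change of the 6 members was 6.08 in WT and 5.20 in Pim1-/- cells, against 0.00 and -0.01 over all genes tested.

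Il1b had the largest log2 fold change of all genes tested in WT cells, 12.10 (SE 0.09, adjusted p = 1.40e-21, limma), and the value in Pim1-/- cells was 11.93, the 3rd largest there. The agonist Il1a rose by 9.26 in WT and 8.81 in Pim1-/- cells, and the antagonist Il1rn by 7.78 in WT (adjusted p = 1.65e-22) and 5.76 in Pim1-/- cells (adjusted p = 4.55e-21, limma). In fold of the mean FPKM, Il1rn rose 318-fold in WT and 76.9-fold in Pim1-/- cells. Il18bp rose by 4.39 and 4.65, Il18 by 3.76 and 3.84, and Il1rap by 1.57 and 1.12 on the log2 scale in WT and Pim1-/- cells, respectively. Il1r1 overlapped between untreated and treated libraries in both genotypes, and Il1r2 was higher in every treated library than in every untreated library of the same genotype, with a mean 9.45-fold that of untreated cells in WT and 1.63-fold in Pim1-/- cells. In bulk RNA, fewer cells that express a gene and less of its RNA per cell cannot be told apart.

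**Figure D2:**
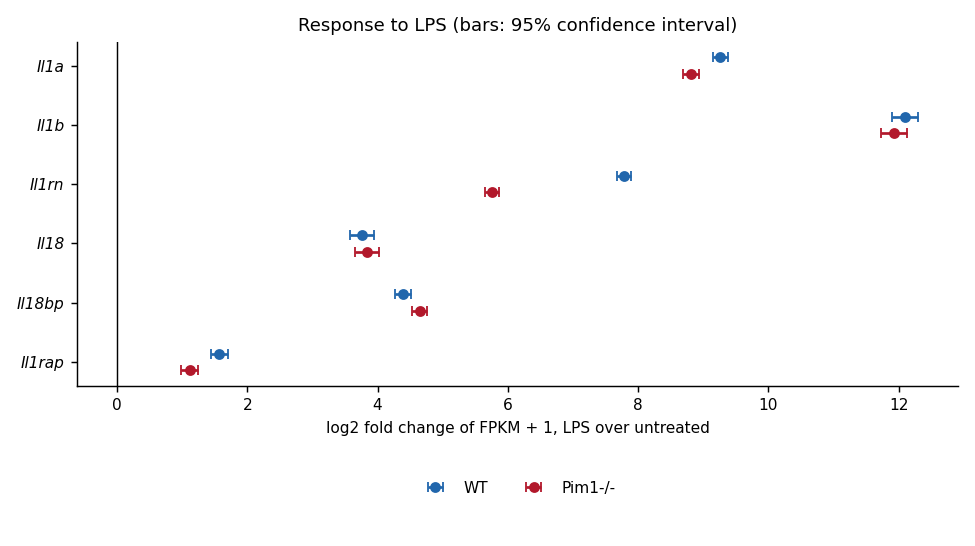
Log2 fold change of FPKM + 1 from untreated to LPS-treated cells for the 6 members that passed the filter, with 95% confidence intervals, in WT (blue) and Pim1-/- (red) BMDMs, computed on the deposited scaling. The Il1rn estimates are 7.78 and 5.76, the widest gap between genotypes among the 6, whereas those of Il18 are 3.76 and 3.84. Scaling to Actb turned both Il1rap estimates negative.

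The response to LPS was then compared between genotypes as an interaction, Pim1-/- minus WT, in the same fit. Of the 6 members only Il1rn was called, with -2.02 (95% confidence interval -2.17 to -1.87, adjusted p = 6.22e-12, limma), where 6.67% of genes tested were called and 4.43% were called lower. Scaled to Actb its interaction was -0.88 and was not called, while the all-gene median moved by 0.74. At an adjusted p under 0.05 with no fold threshold, 4 members met the rule, as did 62.9% of genes tested. The interactions of Il1a (-0.45, adjusted p = 1.27e-04) and Il1rap (-0.45, adjusted p = 3.27e-04) were below 2-fold, and that of Il18bp was 0.26 (adjusted p = 0.00875, limma). For Il18 the interaction was 0.08 with an interval of -0.18 to 0.34.

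For the agonists, the sign of the interaction changed with the pseudocount and with the scaling. Il1b had -0.18 with an interval of -0.46 to 0.11 and an adjusted p of 0.260 in limma. With a pseudocount of 0.1 in place of 1 it was 1.19 with an adjusted p of 0.00390, and for Il1a the value changed from -0.45 to 0.17. With equal sums the Il1b interaction was 0.15, and scaled to Actb it was 1.53 for Il1b and 1.04 for Il1a. In fold of the mean FPKM, Il1b rose 8905-fold in WT and 31693-fold in Pim1-/- cells, and Il1a 4012-fold and 7268-fold, although the treated levels were lower in Pim1-/- cells. The denominators of these folds rest on 3 to 56 fragments per library.

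Between genotypes in untreated cells, 0 of the 6 tested members were called by limma, where 7.78% of genes tested were called. At an unadjusted p under 0.05 there were 4 (Il1a, Il1b, Il18bp and Il1rap), where 76.2% of genes tested were, and at an adjusted p under 0.05 with no fold threshold 3 (Il1a, Il1b and Il18bp), where 74.7% of genes tested met that rule. These 3 were also the tested members whose untreated groups did not overlap, against 78.4% of all genes tested. Il18bp fell by 1.00 on the log2(FPKM + 1) scale (95% confidence interval -1.11 to -0.88, adjusted p = 2.21e-10, limma), just short of 2-fold. It was called when replicate 2 or 3 of either untreated genotype was left out, and leaving out any 1 library gave -1.02 to -0.96. The pseudocount mattered for Il1b, at -0.77 (adjusted p = 2.43e-06) with 1 and -2.13 (adjusted p = 5.13e-07, limma) with 0.1, so that Il1b and Il18bp were both called with the smaller value. The log2 fold changes of Il1a, Il1rap, Il1rn and Il18 were -0.15, 0.13, 0.04 and -0.09, of which that of Il18 turned positive (0.24) when scaled to Actb.

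Between genotypes after LPS, Il1rn was the 1 member of the 6 that was called, where 8.66% of genes tested were called and 5.15% were called lower. It fell by 1.98 on the log2 scale (95% confidence interval -2.08 to -1.87, adjusted p = 2.70e-14, limma) and had the 61st lowest fold change of the 10581 genes. Il1b had -0.94 (adjusted p = 2.09e-07), Il18bp -0.74 (adjusted p = 6.32e-09), Il1a -0.59 (adjusted p = 8.27e-08) and Il1rap -0.32 (adjusted p = 2.07e-04, limma), all short of 2-fold. With Il1rn these are the 5 members with an adjusted p under 0.05, a rule that 77.4% of genes tested met. The 5 tested members other than Il18 did not overlap between genotypes, where 77.5% of genes tested did not. Il18 had -0.01 with an interval of -0.20 to 0.17, and its sign differed between scalings, at 0.24 with quantile normalization and 0.19 with equal sums. The median of the 6 members was -0.67, against -0.03 for all genes tested.

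The direction after LPS held for Il1rn in each scaling tried, and for the other lower members in all but 1. Actb, the reference transcript of the RT-qPCR in the study, was itself called lower in LPS-treated Pim1-/- cells (-1.44, adjusted p = 4.01e-12, limma). Scaled to it, the all-gene median moved up by 1.02, Il1rn had -0.54, which was no longer called, and Il1a, Il1b, Il18bp and Il1rap had positive values between 0.50 and 0.85. The macrophage markers were lower in Pim1-/- cells as well, 10 of 10 both at rest (median -0.74, range -1.67 to -0.06) and after LPS (median -0.94, range -2.14 to -0.13). Their part in the lower cytokine levels was not tested.

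**Figure D3:**
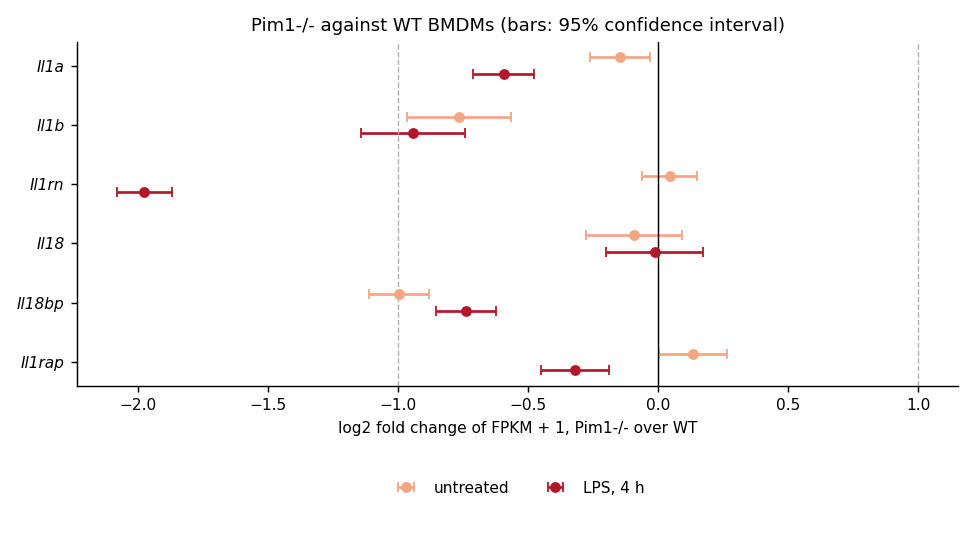
Log2 fold change of FPKM + 1, Pim1-/- over WT, with 95% confidence intervals for the 6 members that passed the filter, in untreated (orange) and LPS-treated (red) BMDMs on the deposited scaling, with dashed lines at 2-fold. Only the treated Il1rn estimate (-1.98) lies beyond the dashed line, Il18bp at rest lies on it, and both Il18 intervals cross 0. Scaled to Actb, the treated values other than that of Il1rn were positive.

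Ratios within a library do not depend on how the libraries were scaled, and relate each inhibitor to its cytokine. The ratio of Il1rn to the sum of Il1a and Il1b was 2.98, 1.53 and 1.85 in untreated WT libraries and 11.4, 15.1 and 9.001 in untreated Pim1-/- libraries. With LPS it was 0.0772, 0.0769 and 0.0766 in WT and 0.0351, 0.0375 and 0.0374 in Pim1-/- libraries. The antagonist transcript thus exceeded the 2 agonist transcripts together in every untreated library and was less than 0.1 of them in every treated library. The genotypes did not overlap in either condition and stood in opposite order, with the mean ratio in Pim1-/- cells 5.60-fold that of WT cells at rest and 0.477 of it after LPS. At rest the denominators rest on few fragments of Il1a and Il1b, and Il1rn itself overlapped between genotypes.

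The ratio of Il18bp to Il18 was 0.462, 0.421 and 0.564 in untreated WT and 0.165, 0.189 and 0.214 in untreated Pim1-/- libraries. It was 0.854, 0.764 and 0.877 in LPS-treated WT and 0.524, 0.494 and 0.480 in LPS-treated Pim1-/- libraries. The ratio was below 1 in each library, and in both conditions the Pim1-/- libraries were all below the WT libraries, at 0.393 of the WT mean at rest and 0.600 after LPS. Between the 2 agonists, the ratio of Il1b to Il1a after LPS was 12.2, 11.5 and 11.7 in WT and 9.42, 8.81 and 9.57 in Pim1-/- libraries, so Il1b was lower relative to Il1a in each Pim1-/- library.

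**Figure D4:**
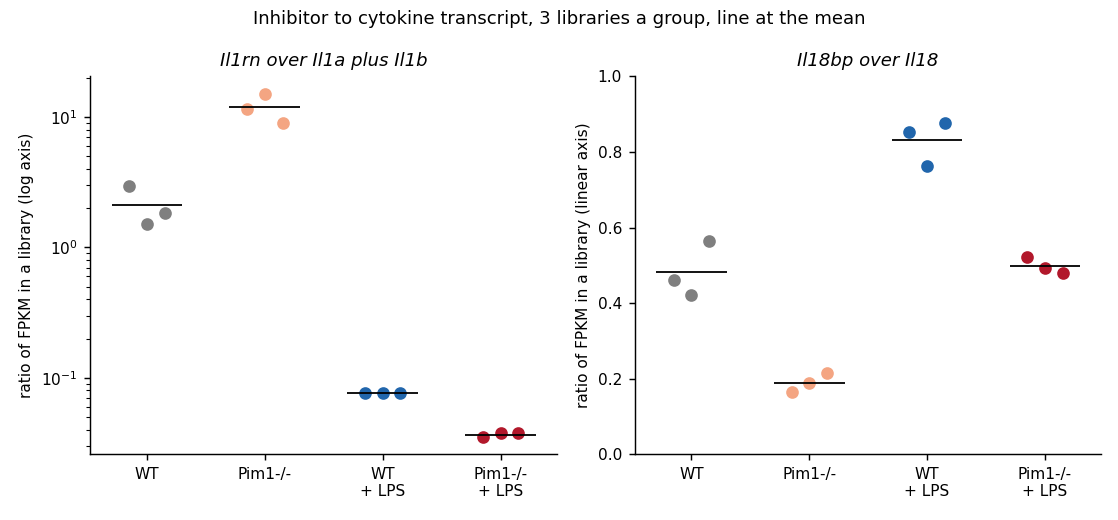
Ratio of FPKM within each library (points, 3 per group, line at the mean) for Il1rn over Il1a plus Il1b on a log axis and for Il18bp over Il18 on a linear axis. For Il1rn the Pim1-/- points are above the WT points at rest (9.001 to 15.1 against 1.53 to 2.98) and below them after LPS (0.0351 to 0.0375 against 0.0766 to 0.0772), whereas for Il18bp they are below in both conditions.

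For each tested member, the 2 genes with the most similar pattern were taken as those with the smallest root mean square difference in centred log2(FPKM + 1) over the 12 libraries. Nearest to Il1rn were Cxcl9, an interferon-induced chemokine (0.126), and Edn1, which encodes endothelin-1 (0.201). Cxcl9 had mean levels of 0.0151 FPKM in untreated WT, 194 FPKM in LPS-treated WT and 44.8 FPKM in LPS-treated Pim1-/- cells, and was listed at 0 in all untreated Pim1-/- libraries. Il1rn had a mean of 2.23 FPKM in untreated WT cells, and the scale compresses such differences between low levels. Il1a was closest to the costimulatory receptor Cd40 (0.127) and the prostaglandin synthase Ptgs2 (0.167), and Il1b to the chemokine Ccl5 (0.231) and to Irg1 (0.504), which makes itaconate. The genes nearest to Il18 were Tlr3 (0.113) and Zc3h12c (0.147), those nearest to Il18bp were Daxx (0.139) and the RNA sensor Ddx58 (0.147), and those nearest to Il1rap were Cab39l (0.0760) and Hnrnpll (0.0765). The points of such a comparison share their 12 libraries and the scaling of each.

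The remaining ligands and receptors of the IL-1 family were mostly silent. Of 13 genes in the files, 2 passed the filter, and 0 of these 2 were called between genotypes in either condition by limma, with an unadjusted p under 0.05 in 0 at rest and in 1 after LPS, against 76.2% and 78.6% of all genes tested. Il18rap, the accessory chain of the IL-18 receptor, had a mean of 0.501 FPKM in untreated WT, 0.629 in untreated Pim1-/-, 1.95 in LPS-treated WT and 0.546 in LPS-treated Pim1-/- cells. Its interaction was called, at -1.05 (adjusted p = 4.41e-07, limma). However, Il18rap reached 1 FPKM only in LPS-treated WT libraries and passed the filter through that group alone. This call is therefore not independent of the filter. Sigirr, a negative regulator of the receptors, fell with LPS in WT cells by 1.02 on the log2 scale and had -0.80 in Pim1-/- cells, which was not called. Sigirr reached 1 FPKM only in untreated libraries and passed the filter through them, so its fall is not independent of the filter either.

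Of the 17 genes of IL-1 and IL-18 receptor signaling, all passed the filter. LPS raised 8 and lowered 2 in WT cells and raised 6 and lowered 0 in Pim1-/- cells, with a list median of 0.61 and 0.50. Of all genes tested, LPS raised 20.1% and lowered 14.7% in WT cells and raised 14.6% and lowered 10.4% in Pim1-/- cells. The ubiquitin ligase Peli1 (4.55 in WT and 4.43 in Pim1-/- cells), the kinase Irak2 (3.26 and 3.34) and the adaptor Myd88 (2.92 and 2.59) led in both genotypes. Between genotypes limma called 0 at rest, where 15 had an unadjusted p under 0.05 (76.2% of all genes tested did), and 1 lower after LPS (5.15% of all genes tested). The medians of the list were -0.43 and -0.29, against -0.05 and -0.03 over all genes tested. The 1 called, named after its values were seen, was Irak3, which encodes the inhibitory kinase IRAK-M and had -1.33 (adjusted p = 1.94e-11, limma). Of the 4 genes with the highest means over all 12 libraries, Myd88 had -0.93, Ube2v1 -0.72, Peli1 -0.55 and Irak2 -0.48 after LPS, and none of these 4 was called. Tab2, named after its values were seen, had -0.94 and was not called.

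The 15 genes of IL-1β and IL-18 processing and release also all passed the filter. LPS raised 8 and lowered 1 in each genotype, against 20.1% raised and 14.7% lowered of all genes in WT and 14.6% and 10.4% in Pim1-/- cells, and the largest changes were those of the inflammatory caspase Casp4 (4.50 in WT and 4.52 in Pim1-/- cells), the sensor Nlrp3 (4.21 and 4.45) and Casp1 (3.29 and 2.61). After LPS, 3 were called lower and 2 higher in Pim1-/- cells, where 5.15% of all genes tested were called lower and 3.51% higher. Those lower were the pyrin gene Mefv (-1.93), the inflammasome adaptor Pycard (-1.60) and the pore-forming Gsdmd (-1.40), which releases IL-1β from the cell. Those higher were the protease inhibitor Serpinb1a (1.59) and Dfna5 (1.14), which encodes gasdermin E and was named after its values were seen. Serpinb1a reached 1 FPKM only in Pim1-/- libraries and passed the filter through them alone, so its call is not independent of the filter. Casp1 had -0.46 and Nlrp3 -0.41 and were not called.

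Pycard and Mefv were the 2 genes of this list whose response to LPS was called different between genotypes, where 6.67% of all genes tested were. Pycard had means of 26.8 FPKM in untreated WT and 34.6 FPKM in untreated Pim1-/- cells, and 68.4 and 22.0 FPKM after LPS. Its interaction was -1.95 (adjusted p = 5.80e-12, limma), as it rose by 1.32 in WT cells and had -0.63, not called, in Pim1-/- cells. Mefv rose in both genotypes, by 3.04 and 1.20, with an interaction of -1.84. Its means were 0.0916 FPKM in untreated WT and 0.0236 FPKM in untreated Pim1-/- cells, and 7.99 and 1.35 FPKM after LPS. Mefv reached 1 FPKM only in treated libraries, so its rise is not independent of the filter. The log2(FPKM + 1) scale understates changes at such low levels, which also enters its interaction. At rest Serpinb1a was the 1 gene of the list that was called, where 7.78% of all genes tested were, at 2.10 (adjusted p = 1.05e-11, limma), and the medians of the list were -0.09 at rest and -0.27 after LPS.

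**Figure D5:**
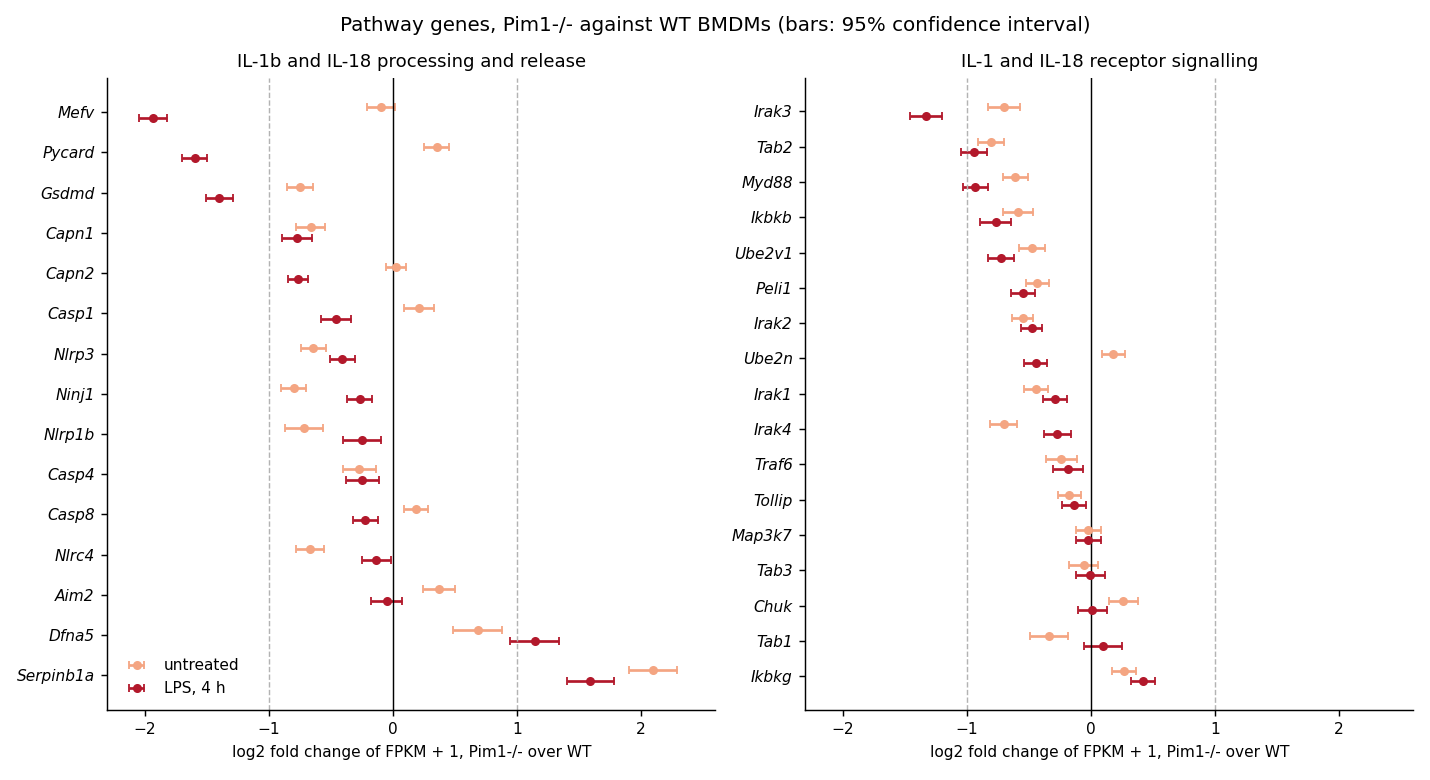
Log2 fold change of FPKM + 1, Pim1-/- over WT, with 95% confidence intervals for the genes of IL-1β and IL-18 processing and release (left) and of IL-1 and IL-18 receptor signaling (right), untreated (orange) and LPS-treated (red), sorted by the treated value on the deposited scaling, with dashed lines at 2-fold. After LPS, Mefv, Pycard, Gsdmd and Irak3 lie below the lower line and Dfna5 and Serpinb1a above the upper one.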

How the data were processed

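RNA-seq libraries were prepared by the authors with a stranded mRNA kit, and per the labels the reads were processed with bcl2fastq 2.20.0.422, cutadapt 1.18, TopHat2 2.0.13 and Cuffdiff 2.2.1 on mm10, whereas the methods of the study name rat rn5. Of the 23997 symbols, 98.6% matched mouse names. The deposited values were read as FPKM and used as deposited. Depth was estimated from low values of genes with 1 transcript, of which 67.7% lay within 0.05 of a whole multiple of 1 fragment, assuming fragments of 200 bases, and fragments given in the text are such estimates and cover counting error only.

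The 10581 genes that reached 1 FPKM in 3 or more libraries were fitted on log2(FPKM + 1) with limma 3.58.1 in R 4.3.3, as 4 group means with a mean-variance trend. Called means more than 2-fold, p under 0.05 and Benjamini-Hochberg adjusted p under 0.1. The fit was tested on simulated data. Other steps used numpy 2.4.6, pandas 2.3.3 and matplotlib 3.10.9 in Python 3.11.15. The text names the 8 members, Pim1, up to 4 genes per pathway list by change or mean level, and 2 genes most like each member, and members and lists were chosen with earlier results of these data known. Older symbols were used for 4 IL-36 ligands and for gasdermin E.

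Libraries share replicate numbers. Over 3646 genes at 10 FPKM or more in every library, same-numbered libraries deviated together in untreated WT and Pim1-/- cells (r of 0.33, 0.37 and 0.46) and in untreated and treated Pim1-/- cells (0.43, 0.54 and 0.68). In the other comparisons, 0.02 and -0.10 were the lowest. Over 5416 genes chosen by a mean of 10 FPKM instead, not every pair exceeded 0.1. There, r was 0.0057, 0.28 and 0.065 between untreated WT and Pim1-/- cells. Between untreated and treated Pim1-/- cells it was 0.080, 0.14 and 0.34. The labels do not say what the numbers mark, so whether they pair libraries was not settled. The replicate block was an alternative, besides other pseudocounts, filters and scalings, a fit of only the groups compared, no trend, another threshold and leaving out each library.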

Additional observations from a re-analysis of the deposited data

Results flagged for a closer look

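The response of Il1rn to LPS differed between genotypes, tested as an interaction, by -2.02 on the log2(FPKM + 1) scale (Pim1-/- minus WT). Leaving out any 1 library gave -2.07 to -1.99.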

How the results depend on the processing

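Of the members' values, 18 changed direction under an alternative, and of those of Pim1, 2 did. Scaled to Actb, chosen after the data were seen, these were, between genotypes, Il18 at rest (0.24) and Il1a (0.85), Il1b (0.50), Il18 (1.40), Il18bp (0.68) and Il1rap (0.81) after LPS, Il1rap in the LPS response of WT (-0.42) and Pim1-/- cells (-0.058), and the interactions of Il1a (1.04), Il1b (1.53), Il1rap (0.36) and Pim1 (0.88). Others were Il18 after LPS with quantile normalization (0.24), with equal sums, also chosen after the data were seen (0.19), and without WT replicate 2 or Pim1-/- replicate 3 (range over all libraries left out -0.048 to 0.0099), Pim1's interaction with quantile normalization (0.21), and the interactions of Il1a (0.17) and Il1b (1.19) with a pseudocount of 0.1 and of Il1b with equal sums (0.15). The number of members called at rest was 0, but 2 with a pseudocount of 0.1, 1 with quantile normalization, equal sums or Actb, 3 at an adjusted p under 0.05 with no fold threshold, and 0 to 1 with 1 library left out. After LPS it was 1, and 5 without a fold threshold, and with Actb the 1 called was Il18 instead of Il1rn. For the interaction it was 1, and 2 with a pseudocount of 0.1, 4 with Actb and 4 without a fold threshold. The cause of these changes was not tested. Over all genes, a pseudocount of 0.1 called 1442 genes in place of 916 after LPS and 1075 in place of 706 for the interaction. The share of called genes that were lower was 59.5% after LPS, 40.1% with equal sums and 0.636% with Actb; for the interaction 66.4%, 54.3% and 7.03%; for LPS in WT cells 42.2%, 75.6% and 95.5%, and 52.4% with quantile normalization; for LPS in Pim1-/- cells 41.6%, 74.2% and 92.1%; and at rest 43.4%, and 16.4% with Actb.

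With the replicate block, Il1rn after LPS had an adjusted p of 8.27e-13 in limma at the same estimate of -1.98, and the block changed no call of a member. Depth limits Il1r1 and, at rest, Il1a, Il1b and Il1r2, which rest on 56 fragments or fewer per library.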
